A study of Mus musculus with 8 samples.

Results

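Ltb4r1 and Ltb4r2 encode the leukotriene B4 receptors known as BLT1 and BLT2. The pair is 2 of 20461 gene identifiers, picked by name in the library tables after their values under tamoxifen had been seen. The RNA came from ESCs, mouse embryonic stem cells, established from tatsf1 flox/flox CreERT2 mice and grown on MEFs, mouse embryonic fibroblasts used as a feeder layer. In these cells tamoxifen activates the recombinase and thereby deletes the floxed Htatsf1 gene. The 4 groups were ethanol for 48 h, tamoxifen for 48 h, ethanol for 72 h and tamoxifen for 72 h, with 2 libraries each. All 4 groups carry both the floxed alleles and CreERT2, and all grew on feeders, so the ethanol cells differ from the tamoxifen cells in the added agent. The promoter driving CreERT2, the number of clones and the origin of the feeders are not given in the sources used here, and cells without floxed alleles were not analysed here. Whether the 2 libraries of each group are separate cultures is not stated in the labels. The p-values therefore weigh differences only against the spread between these libraries, and that spread may be technical.

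Leukotriene B4 is a lipid mediator made from arachidonic acid by 5-lipoxygenase and leukotriene A4 hydrolase. Both receptors are G protein-coupled. BLT1 binds leukotriene B4 with high affinity and is best known on neutrophils and other leukocytes, where it drives chemotaxis. BLT2 binds leukotriene B4 with low affinity, responds strongly to 12-HHT, a product of the cyclooxygenase and thromboxane pathway, and is best known in skin and gut epithelium.

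The genes lie side by side on chromosome 14 of mm9, Ltb4r2 at 56380265 to 56382066 and Ltb4r1 at 56384799 to 56387329. A gap of 2732 bases separates them, and no other entry of the files overlaps either one (0 entries). In the GENCODE annotation of GRCm38 both are on the plus strand, so Ltb4r2 lies upstream of Ltb4r1. The protein-coding transcript of Ltb4r1 there has 2 exons and 1394 bases, 1056 of them coding with the stop codon, and that of Ltb4r2 has 2 exons and 1439 bases, 1083 of them coding. A longer, non-coding Ltb4r2 transcript of 3703 bases keeps its intron.

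Receptors of one family can share reads, so the coding sequences were compared. In a global alignment 578 of 1024 aligned bases were identical, or 56.4%, with 91 further columns holding a gap. The longest stretch found in both was 14 bases, against reads of 100 bases. It is printed in capitals with 30 bases on each side, from the GENCODE transcripts and 5′ to 3′. No stretch as long as a read is common to the 2 coding sequences.
Ltb4r1: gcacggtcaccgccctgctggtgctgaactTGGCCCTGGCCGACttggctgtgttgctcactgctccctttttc
Ltb4r2: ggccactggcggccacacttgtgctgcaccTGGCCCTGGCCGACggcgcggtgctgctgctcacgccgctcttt

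The 250 bases before the annotated start of Ltb4r1 are shown from the RefSeq promoter table (GRCm38.p6, chr14:55765712-55765961, plus strand). Whether this window overlaps an Ltb4r2 transcript, such as the longer one that keeps its intron, was not compared. The window has a GC content of 56.8% and 3 CpG dinucleotides. Capitals mark the 2 motif matches, both on the minus strand, a PU.1 core (GAGGAA) and a GC box (GGGCGG).
Ltb4r1 upstream: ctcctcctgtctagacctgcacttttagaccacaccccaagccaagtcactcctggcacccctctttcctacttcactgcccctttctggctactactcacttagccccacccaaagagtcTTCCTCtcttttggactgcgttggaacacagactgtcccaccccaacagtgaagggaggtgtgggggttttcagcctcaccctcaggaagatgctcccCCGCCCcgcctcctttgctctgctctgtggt
Searching both strands of all 32851 windows of this table, 23.3% held the PU.1 core and 32.7% the GC box. The AP-1 motif TGANTCA (in 6.75% of windows), the TATA box TATAAA (12.4%) and a p53 half-site (7.13%) had no match in the Ltb4r1 window. A match is a description of the letters and not evidence of a bound factor. Of the pair, 1 of 2 was matched in this table, Ltb4r1.

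Both receptors were near the lower end of detection with ethanol and higher in every tamoxifen library, most of all at 72 h. Their levels are given in FPKM, fragments per kilobase of transcript, scaled to the mapped total, a level per length that allows the genes to be set beside each other. The brackets hold the interval that the deposited tables give for each library.

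Ltb4r1 stood at 0.448 [0.0823 to 0.815] and 0.612 [0.225 to 1.00] FPKM in the ethanol libraries of 48 h, replicate 1 first. With tamoxifen for 48 h it stood at 1.93 [1.04 to 2.81] and 2.02 [1.27 to 2.78] FPKM. In the ethanol libraries of 72 h the values were 0.258 [0 to 0.555] and 0.515 [0.151 to 0.880] FPKM. With tamoxifen for 72 h they were 4.25 [3.30 to 5.20] and 4.93 [3.78 to 6.09] FPKM. Both tamoxifen libraries lay above both ethanol libraries at each time, and the intervals of the ethanol and tamoxifen libraries did not overlap at either time. The 72 h tamoxifen libraries were the highest of the 8.

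Ltb4r2 stood at 0.765 [0.281 to 1.25] and 0.847 [0.394 to 1.299] FPKM with ethanol for 48 h. With tamoxifen for 48 h it stood at 2.13 [1.18 to 3.09] and 3.25 [2.28 to 4.22] FPKM. With ethanol for 72 h the values were 0.986 [0.391 to 1.58] and 1.09 [0.546 to 1.64] FPKM. With tamoxifen for 72 h they were 8.32 [6.97 to 9.67] and 7.71 [6.25 to 9.17] FPKM. Again no tamoxifen library overlapped an ethanol library of its time in value, although the intervals of the first tamoxifen library and both ethanol libraries met at 48 h. Of all genes tested, 32.7% had both tamoxifen libraries above both ethanol libraries at 48 h and 35.2% at 72 h, so this order alone sets neither receptor apart.

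**Figure D1:**
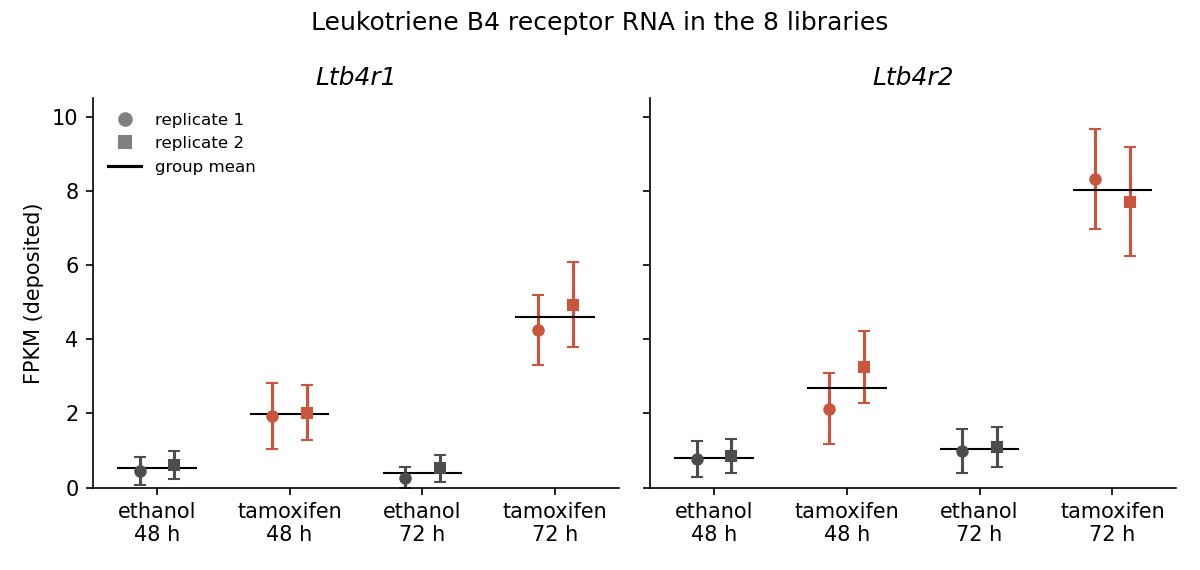
FPKM of Ltb4r1 (left) and Ltb4r2 (right) on linear axes in the 4 groups, with a point for each library, its deposited interval as a bar and the group mean as a horizontal line. The 72 h tamoxifen libraries sit highest in both panels, at 4.25 and 4.93 FPKM for Ltb4r1 and at 8.32 and 7.71 FPKM for Ltb4r2.

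The number of fragments behind these values is small. Taking the deposited interval as 2 SD of a count, the ethanol libraries of 48 h held 6 and 10 fragments of Ltb4r1 and 10 and 14 of Ltb4r2. The ethanol libraries of 72 h held 3 and 8 fragments of Ltb4r1 and 11 and 16 of Ltb4r2. Under tamoxifen for 48 h the numbers were 19 and 29 for Ltb4r1 and 20 and 45 for Ltb4r2. Under tamoxifen for 72 h they were 80 and 73 for Ltb4r1 and 151 and 111 for Ltb4r2. The ethanol level is therefore the less certain side of every ratio below.

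The mean of Ltb4r1 went from 0.530 ± 0.116 FPKM (SD, n = 2) with ethanol to 1.98 ± 0.0682 (n = 2) with tamoxifen at 48 h, a ratio of 3.73. At 72 h it went from 0.386 ± 0.182 (n = 2) to 4.59 ± 0.482 FPKM (n = 2), a ratio of 11.9. Over the pooled implied fragments of each group the ratio of Ltb4r1 was 3.69 at 48 h, with an exact 95% interval of 2.06 to 6.95. At 72 h this pooled ratio was 11.2, with an interval of 6.11 to 23.0. The intervals cover counting error only. The smallest ratio between any tamoxifen and any ethanol library was 3.15 at 48 h and 8.25 at 72 h.

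The mean of Ltb4r2 went from 0.806 ± 0.0575 FPKM (SD, n = 2) to 2.69 ± 0.791 (n = 2) at 48 h, a ratio of 3.34. At 72 h it went from 1.04 ± 0.0756 (n = 2) to 8.01 ± 0.431 FPKM (n = 2), a ratio of 7.71. The pooled ratio of Ltb4r2 was 3.45 at 48 h and 7.69 at 72 h, with counting intervals of 2.13 to 5.77 and 5.17 to 11.9. These intervals overlap those of Ltb4r1 at both times, so the data do not place one receptor's ratio above the other's.

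On the log2(FPKM + 1) scale, which understates the change of genes at such low levels, the tamoxifen difference of Ltb4r1 was 0.96 at 48 h and 2.02 at 72 h. That of Ltb4r2 was 1.02 at 48 h and 2.14 at 72 h. Among the 11867 genes tested, ordered by this difference, Ltb4r2 held rank 2 and Ltb4r1 rank 3 at 72 h, and they held ranks 11 and 17 at 48 h. The median difference of all genes tested was 0.02 at 48 h and -0.01 at 72 h, and 3.94% of them had a ratio of 2 or more at 72 h against 0.978% at 48 h. The receptors were chosen for these differences, so the ranks describe the choice and carry no test. Both receptors also entered the tested set through their tamoxifen libraries, which all had an FPKM of at least 1, while of the ethanol libraries 1 did, the second of Ltb4r2 at 72 h. Passing that level in this way already required a difference.

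The authors' deposited table for each time gives group means of scaled counts, made separately from the FPKM. In the authors' deposited table Ltb4r1 went from 9.41 with ethanol to 35.7 with tamoxifen at 48 h and from 11.0 to 99.2 at 72 h. In the same authors' deposited table Ltb4r2 went from 15.4 to 51.2 at 48 h and from 18.6 to 150.6 at 72 h. The resulting ratios in the authors' deposited table were 3.79 and 8.998 for Ltb4r1 and 3.31 and 8.09 for Ltb4r2. Both sources rest on the same libraries. For Ltb4r1 at 72 h the ratio from the scaled counts, 8.998, is below the 11.9 from the mean FPKM. It is within the counting interval of the pooled fragment ratio.

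Set in order, the groups of Ltb4r1 ran from ethanol 72 h through ethanol 48 h and tamoxifen 48 h to tamoxifen 72 h. The 2 ethanol groups overlapped, and no other neighbours in that order did. For Ltb4r2 the order was ethanol 48 h, ethanol 72 h, tamoxifen 48 h and tamoxifen 72 h, with no overlap of library values. The intervals overlapped between the ethanol groups, and that of tamoxifen 48 h replicate 1 overlapped both of ethanol 72 h. From 48 h to 72 h of tamoxifen the mean of Ltb4r1 was 2.32 times as high and that of Ltb4r2 2.98 times as high. Within the ethanol cells Ltb4r1 differed by -0.15 ± 0.13 (SE) on the log2 scale from 48 h to 72 h (limma, adjusted p = 0.342). Ltb4r2 differed by 0.18 ± 0.14 over the same interval (limma, adjusted p = 0.293). Neither passed, where 38.0% of all genes tested rose and 19.2% fell with time in ethanol, and at these depths a small change would not be detectable. The sign of the Ltb4r2 value turned with the scaling, to -0.04 under quantile normalization (limma, adjusted p = 0.833), where Ltb4r1 stood at -0.31 (adjusted p = 0.0552). The scaling also moved the median change of all genes with time in ethanol, from 0.11 in the deposited FPKM to -0.01 under quantile normalization.

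Per length, Ltb4r2 was above Ltb4r1 in 8 of 8 libraries. The ratio of the 2 FPKM values was 1.71 and 1.38 with ethanol for 48 h, 1.11 and 1.61 with tamoxifen for 48 h, 3.83 and 2.12 with ethanol for 72 h, and 1.96 and 1.56 with tamoxifen for 72 h. The highest of these, 3.83, comes from the library with 3 fragments of Ltb4r1. At 48 h the tamoxifen libraries lay on either side of the ethanol value of 1.38, and at 72 h both tamoxifen libraries lay below both ethanol libraries.

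The targeted gene checks the labels. Htatsf1, which encodes a splicing-related factor, fell from 22.3 to 3.95 FPKM at 48 h and from 22.7 to 4.38 FPKM at 72 h. Over all genes tested 7.88% rose and 4.47% fell with tamoxifen at 48 h, and 20.1% rose and 18.5% fell at 72 h (limma, adjusted p of at most 0.05). The split at 48 h depends on the scaling, with 935 rises and 531 falls in the deposited FPKM and 818 and 768 under median-ratio scaling. With time in ethanol it was 4506 and 2278 in the deposited FPKM and 3343 and 3371 under median-ratio scaling. The depth implied by the deposited intervals was 8.99 to 16.8 M fragments a library.

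In bulk RNA more cells of a type and more RNA per cell cannot be told apart, and the cultures hold feeder fibroblasts beside the stem cells. Of 25 listed fibroblast genes 24 were tested. At 48 h 22 of them rose and 0 fell, against 7.88% and 4.47% of all genes tested. At 72 h 23 of them rose and 0 fell, against 20.1% and 18.5%. Their summed level was 821 to 863 FPKM with ethanol and 1191 to 1203 with tamoxifen at 48 h, and 878 to 918 against 1666 to 1777 at 72 h. The highest ratio of any fibroblast gene tested was 1.96 at 48 h (Lum) and 3.07 at 72 h (Twist2), and the medians were 1.52 and 2.23. Fap, below the level for testing, had 0.869 at 48 h and 3.25 at 72 h, the latter between 0.208 and 0.677 FPKM. Both receptors' ratios, 3.73 and 3.34 at 48 h and 11.9 and 7.71 at 72 h, were above those of every fibroblast gene tested. The receptors were chosen for these differences, so this order describes the choice and carries no test.

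Leukocyte genes moved in the same direction. Of 18 listed, 17 were in the files and 8 were tested. At 48 h 5 of these rose and 0 fell, against 7.88% and 4.47% of all genes tested. At 72 h 8 rose and 0 fell, against 20.1% and 18.5%. The 48 h count rested on single libraries, with 0 rises when ethanol replicate 1 of 48 h was left out and 2 when ethanol replicate 2 was. Leaving out the first tamoxifen library of 48 h gave 1 rise, and leaving out the second gave 3. The summed leukocyte level was 33.0 to 34.8 FPKM with ethanol and 47.0 to 51.2 with tamoxifen at 48 h, and 29.1 to 31.6 against 63.3 to 71.3 at 72 h. Among the 8 tested, the highest leukocyte ratio was 2.51 at 48 h (Tyrobp) and 4.46 at 72 h (Fcer1g). These were again below both receptors, as a description of the genes chosen. Tyrobp and Fcer1g are adaptor genes of myeloid receptors named here for their values. Cd3e, below the level for testing, had 2.72 at 48 h, between means of 0.126 and 0.342 FPKM, and 0.984 at 72 h. Also below it, Ptprc had ratios of 0.832 at 48 h and 4.01 at 72 h, Csf1r 2.00 and 3.06, and Itgam 1.76 and 2.88. Elane had 0.947 at 72 h. S100a8 had 0.606 at 48 h, and at 72 h 0 FPKM in both ethanol libraries and 0.653 and 0.219 with tamoxifen. Without the filter 3 leukocyte genes rose and 0 fell at 48 h, and 9 rose and 0 fell at 72 h. Tyrobp lost its 48 h call without either of 2 libraries (limma, adjusted p up to 0.0814). Fcer1g lost its 72 h call without any 1 of 3 (limma, adjusted p up to 0.153), and its ethanol libraries of 72 h stood at 0.556 and 0 FPKM. The count of 8 at 72 h did not go below 6 with a library left out. Of the listed neutrophil genes, Mpo and S100a9 were at 0 in all 8 libraries, Elane ran from 0 to 0.165 FPKM and S100a8 from 0 to 0.835 FPKM. A listed 0 does not show absence in these files, where Sox2 is at 0 as well. Ptprc, the common leukocyte antigen, stood at 0 to 0.25 FPKM.

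The counts of the next 3 lists stand beside 7.88% of all genes tested rising and 4.47% falling at 48 h. At 72 h those shares were 20.1% and 18.5%. Among 8 epithelial genes 4 were tested, with 1 rise (Krt8) and 0 falls at 48 h. At 72 h the keratin genes Krt8 and Krt18 and the cadherin gene Cdh1 rose and Epcam fell. Below the level for testing, Krt5 had means of 0.0413 and 0.201 FPKM at 48 h, a ratio of 4.86. At 72 h it had 0.0180 and 0.457 FPKM, a ratio of 25.4. Both ratios were above those of both receptors, at far lower levels. The involucrin gene Ivl had ratios of 0.741 at 48 h and 8.92 at 72 h. Krt14 and Krt10 had 1.45 and 1.38 at 72 h. Without the filter 5 epithelial genes rose and 1 fell at 72 h. The 48 h call of Krt8 was lost without any 1 of 6 libraries and in 7 other alternatives (limma, adjusted p up to 0.0871 in those). That of Cdh1 at 72 h was lost without ethanol replicate 2 or tamoxifen replicate 1 of 72 h. Of 10 pluripotency genes 9 were tested, with 0 rises and 1 fall at 48 h and 0 rises and 5 falls at 72 h (Dppa5a, Klf4, Nanog, Tdgf1 and Zfp42), and Sox2 was listed at 0. The fall at 48 h was that of Tdgf1, lost without any 1 of 6 libraries and in 4 other alternatives (limma, adjusted p up to 0.214 in those). The 72 h call of Dppa5a was lost without replicate 1 of either 72 h group. The keratin, involucrin, cadherin and pluripotency genes beyond the rule were named after their values were seen. All 16 genes of a p53 target list were tested, with 13 rises and 0 falls at 48 h and 14 rises and 0 falls at 72 h. The highest ratio on the p53 list was 2.29 at 48 h and 4.05 at 72 h, the latter for Mdm2, the ligase that degrades p53. The part of any of these lists in the receptors' difference was not tested.

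**Figure D2:**
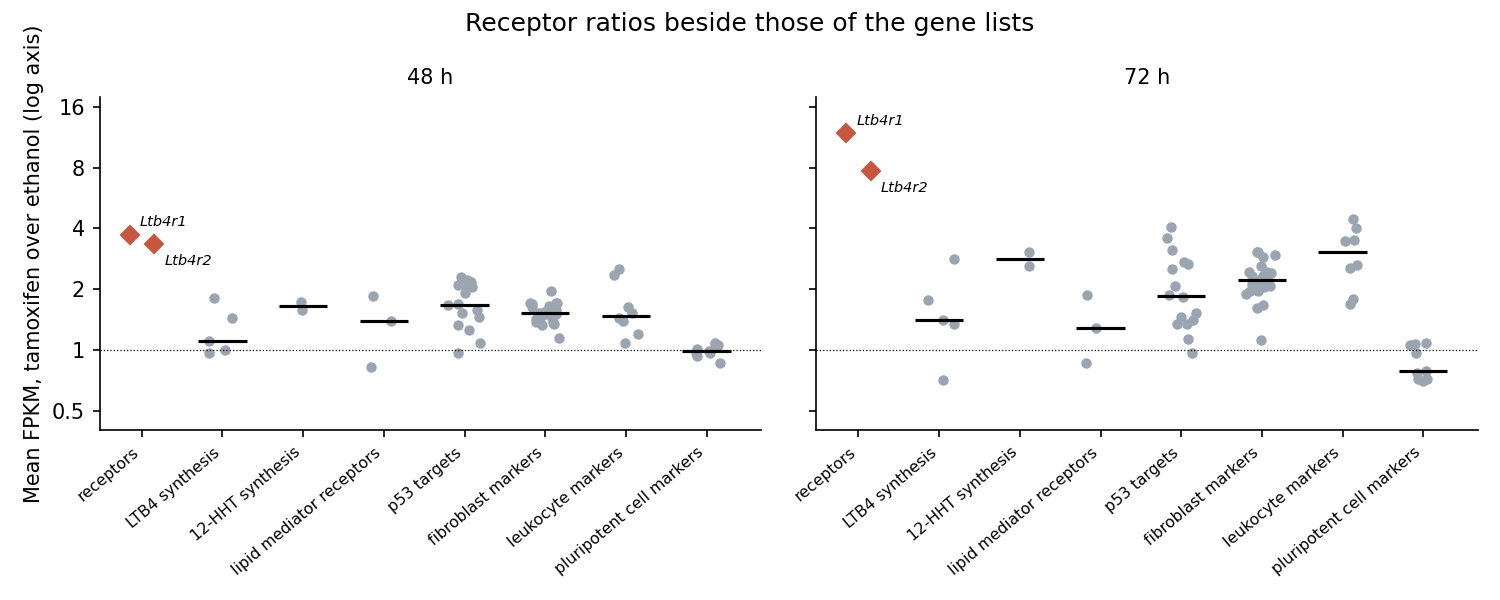
Ratio of mean FPKM, tamoxifen over ethanol, on a log axis for the tested genes of 7 lists (grey points, with a line at the list's median) at 48 h (left) and 72 h (right), with the receptors as diamonds. At 72 h the receptors lie at 11.9 and 7.71, above the highest tested fibroblast gene at 3.07 and the highest tested leukocyte gene at 4.46. The receptors were chosen for these differences, so their place above the lists carries no test.

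At 72 h none of the tested neighbours on the chromosome had a difference of the receptors' size. Cideb, a lipid droplet protein gene 3003 bases before Ltb4r2, stood at 0.06 to 0.27 FPKM and Adcy4, an adenylyl cyclase gene 599 bases after Ltb4r1, at 0.04 to 0.21 FPKM, both below the level for testing. In the authors' deposited table the scaled count of Cideb had means of 0.922 with ethanol and 3.06 with tamoxifen at 48 h, a ratio of 3.32 beside the 3.31 of Ltb4r2, and of 3.15 and 2.63 at 72 h. Its FPKM at 48 h were 0.0672 and 0.0558 with ethanol and 0.269 and 0.0609 with tamoxifen, so 1 library set that ratio. In the authors' deposited table Adcy4 had 3.61 and 4.65 at 48 h and 3.51 and 6.62 at 72 h. The closest tested gene before the pair, Nop9, an RNA-binding protein gene 5793 bases away, went from 35.0 to 34.2 FPKM at 48 h (log2 difference -0.03, limma, adjusted p = 0.725) and from 31.0 to 31.4 FPKM at 72 h (0.02, adjusted p = 0.798). The closest tested gene after it, Ripk3, a kinase gene of necroptosis 16502 bases away, stood at 6.03 ± 0.53 FPKM with ethanol and 7.47 ± 0.55 with tamoxifen at 48 h (0.27 ± 0.09 SE, limma, adjusted p = 0.0909). At 72 h Ripk3 rose from 3.64 ± 0.30 to 6.21 ± 0.29 FPKM, a ratio of 1.70 (0.64 ± 0.09 SE, limma, adjusted p = 0.000565).

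The 10 entries on each side of the pair gave 13 tested genes. At 48 h 0 of the 13 rose, against 7.88% of all genes tested, and 1 fell, against 4.47%. At 72 h 2 rose, against 20.1%, and 3 fell, against 18.5%. The 13 log2 differences at 72 h ran from -0.54 to 0.64 with a median of -0.04, beside -0.01 for all genes tested. Tinf2, a telomere protein gene, fell at both times, from 22.6 to 17.4 FPKM at 48 h (-0.35 ± 0.06, limma, adjusted p = 0.00578) and from 24.9 to 17.0 FPKM at 72 h (-0.53 ± 0.06, adjusted p = 0.00013). Gmpr2, a purine metabolism gene, fell from 13.7 to 9.16 FPKM at 72 h (-0.54 ± 0.10, limma, adjusted p = 0.0019).

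Tgm1, a transglutaminase of the skin barrier, rose from 6.20 to 8.15 FPKM at 72 h (0.34 ± 0.09, limma, adjusted p = 0.0169), a call lost without either ethanol library or without tamoxifen replicate 1 of 72 h (limma, adjusted p up to 0.135). Sdr39u1 fell from 2.38 to 1.56 FPKM at 72 h (-0.41 ± 0.12, limma, adjusted p = 0.0262), a call lost without ethanol or tamoxifen replicate 1 of 72 h and without the filter on low values (limma, adjusted p up to 0.183). The 2 receptors, at 2.14 and 2.02 on the same scale, were above all 13 tested neighbours at 72 h, as a description of the genes chosen. Below the level for testing, Cma2 had a ratio of 9.22 at 72 h, above the 7.71 of Ltb4r2 at a far lower level. Its values were 0.0967 and 0 FPKM with ethanol and 0.313 and 0.578 with tamoxifen, and its 48 h ratio was 1.06. At 72 h Tssk4 had a ratio of 1.25, Mcpt1 1.16 and Cbln3 0.461.

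**Figure D3:**
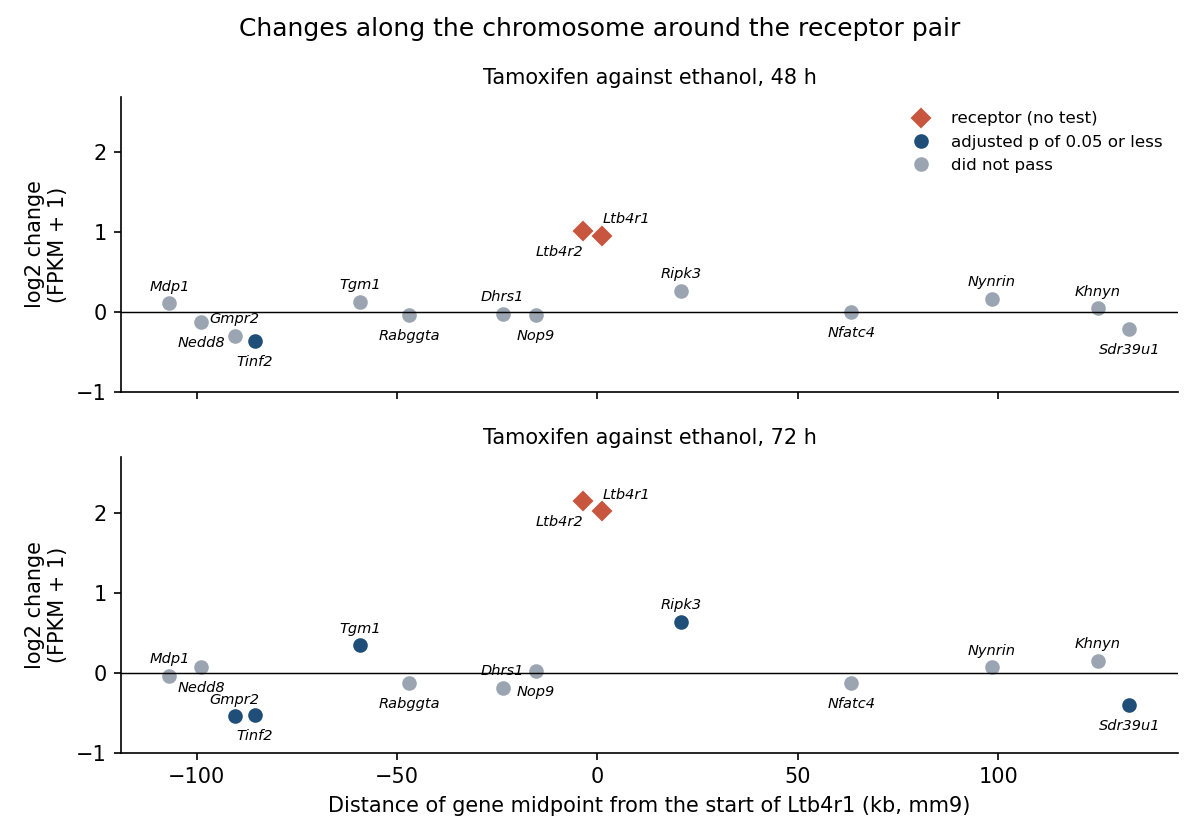
Tamoxifen difference in log2(FPKM + 1) at 48 h (top) and 72 h (bottom) against the distance in kb of each gene's midpoint from the start of Ltb4r1, with the receptors as untested diamonds, neighbours with an adjusted p of at most 0.05 in blue and the others in grey. At 72 h the receptors stand at 2.02 and 2.14 while the 13 tested neighbours lie between -0.54 and 0.64.

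The 5 genes listed for the synthesis of leukotriene B4, which encode enzymes and partners of 5-lipoxygenase, were all tested. They gave 0 rises and 0 falls at 48 h, where 7.88% of all genes tested rose and 4.47% fell. At 72 h 3 rose, against 20.1% of all genes tested, and 1 fell, the partner Cotl1, against 18.5%. The median log2 difference of the 5 was 0.14 at 48 h and 0.42 at 72 h. Alox5 encodes 5-lipoxygenase, the first enzyme of the pathway. At 72 h it stood at 1.17 and 0.891 FPKM with ethanol and 2.87 and 2.93 with tamoxifen, a ratio of 2.82 with no overlap (0.95 ± 0.13 SE, limma, adjusted p = 0.000379). At 48 h its means were 0.412 and 0.746 FPKM (0.30 ± 0.13, limma, adjusted p = 0.168), and the change itself did not differ between the times past the threshold (0.65, adjusted p = 0.0875).

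Lta4h, whose product makes leukotriene B4 itself, rose from 26.3 to 35.5 FPKM at 72 h (0.42 ± 0.07, limma, adjusted p = 0.00115) and stood at 30.3 and 29.2 FPKM at 48 h (-0.05, adjusted p = 0.679). Pla2g4a, the cytosolic phospholipase that releases arachidonic acid, rose from 3.13 to 5.53 FPKM at 72 h (0.66 ± 0.14, limma, adjusted p = 0.00421). Alox5ap, the membrane partner of 5-lipoxygenase, stood at 1.38 FPKM with ethanol and 1.94 with tamoxifen at 72 h and did not pass (0.33, limma, adjusted p = 0.146). Cotl1, an actin-binding partner of 5-lipoxygenase, fell from 88.8 to 62.8 FPKM at 72 h (-0.49 ± 0.06, limma, adjusted p = 9.83e-05). The 72 h calls of Alox5, Lta4h, Pla2g4a and Cotl1 held in every alternative and with each library left out.

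Both tested enzymes on the way to 12-HHT, the other ligand of BLT2, rose at 48 h and at 72 h, with list medians of 0.57 and 1.21. Of all genes tested 7.88% rose at 48 h and 20.1% at 72 h. Ptgs2, the inducible cyclooxygenase, went from 13.5 to 21.2 FPKM at 48 h (0.61 ± 0.07, limma, adjusted p = 0.00056) and from 8.59 to 22.3 FPKM at 72 h, a ratio of 2.60 (1.28 ± 0.07, adjusted p = 9.71e-07). Ptgs1, the constitutive cyclooxygenase, went from 1.49 to 4.52 FPKM at 72 h, a ratio of 3.04 (1.14 ± 0.12, limma, adjusted p = 7.68e-05). Its rise at 48 h, from 1.54 to 2.64 FPKM (0.53 ± 0.12, limma, adjusted p = 0.0205), was lost when any 1 of the 4 libraries of that time was left out (limma, adjusted p up to 0.140). Tbxas1, the thromboxane synthase that forms 12-HHT, did not exceed 0.14 FPKM and was not tested.

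**Figure D4:**
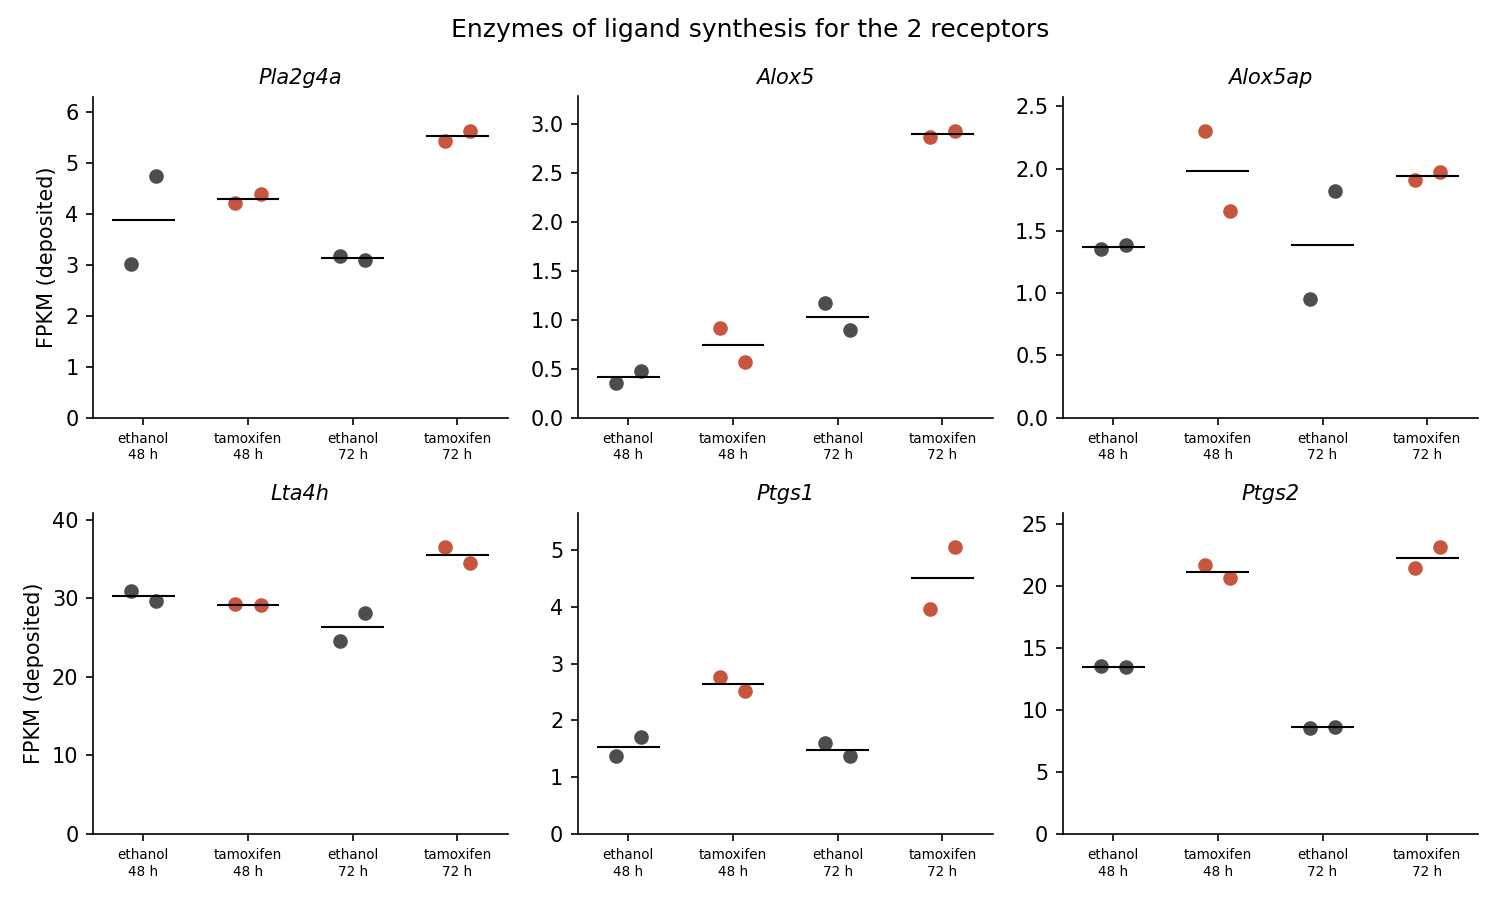
FPKM by library, on linear axes that start at 0, of 6 genes for the synthesis of leukotriene B4 and 12-HHT, with a point for each library in the 4 groups and a line at each group mean. At 72 h Pla2g4a, Alox5, Lta4h, Ptgs1 and Ptgs2 are higher with tamoxifen, Ptgs2 at 22.3 against 8.59 FPKM. Cotl1 of the same lists, which fell from 88.8 to 62.8 FPKM at 72 h, and the untested Tbxas1 are not drawn.

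Of the leukotriene B4 breakdown genes 3 were tested and 0 passed at either time. Of all genes tested 7.88% rose and 4.47% fell at 48 h, and 20.1% rose and 18.5% fell at 72 h. Ptgr1, which oxidises leukotriene B4, stood at 16.4 FPKM with ethanol and 16.8 with tamoxifen at 72 h, Ptgr2 at 8.36 and 7.99, and Cyp4f13 at 3.41 and 3.16. None of the 6 genes of other lipoxygenases reached the level for testing.

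Of 17 other lipid mediator receptors in the files 3 were tested, with 1 rise and 0 falls at each time. The shares of all genes tested were 7.88% and 4.47% at 48 h and 20.1% and 18.5% at 72 h. Without the filter on low values 3 of these receptors rose at 72 h. Cmklr1, the chemerin and resolvin receptor gene, rose from 1.08 to 2.01 FPKM at 48 h (0.53 ± 0.12, limma, adjusted p = 0.0174), a call lost without either ethanol library or without tamoxifen replicate 2 of 48 h (limma, adjusted p up to 0.124). At 72 h Cmklr1 stood at 2.81 FPKM with ethanol and 2.42 with tamoxifen (-0.15, limma, adjusted p = 0.329). Tbxa2r, the thromboxane receptor gene, rose from 0.989 to 1.84 FPKM at 72 h (0.51 ± 0.14, limma, adjusted p = 0.016), a call lost without either ethanol library or without tamoxifen replicate 1 of 72 h (limma, adjusted p up to 0.0794). Ptger4, a prostaglandin E2 receptor gene, passed at neither time (0.27 and 0.20, limma, adjusted p = 0.186 and 0.242). The cysteinyl leukotriene receptors Cysltr1, at 0.32 to 0.59 FPKM, and Cysltr2, at 0.20 to 0.40 FPKM, were below the level for testing, and in both the 72 h tamoxifen libraries were the lowest of the 8. Other receptors below that level were higher with tamoxifen at 72 h, here named after their values were seen. Fpr1, a formyl peptide receptor gene of leukocytes, stood at 0 and 0.0648 FPKM with ethanol and 0.281 and 0.290 with tamoxifen, a ratio of means of 8.81. Ptgfr, a prostaglandin F receptor gene, had a ratio of 6.28 between means of 0.0300 and 0.189 FPKM, and Ptgir, the prostacyclin receptor gene, had 1.66 between 0.415 and 0.688 FPKM. The ratio of Fpr1 was thus above the 7.71 of Ltb4r2, at a far lower level.

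Of the cysteinyl leukotriene synthesis genes 3 were tested, with 0 rises and 0 falls at 48 h. At 72 h 0 rose and 1 fell, against 20.1% and 18.5% of all genes tested. The fall was that of Mgst3, a microsomal glutathione transferase gene, from 28.2 to 22.5 FPKM (-0.32, limma, adjusted p = 0.016), lost without replicate 1 of either 72 h group (limma, adjusted p up to 0.113). Of the genes for G proteins and their partners, through which both receptors signal, 15 were tested. At 48 h 1 rose and 1 fell, against 7.88% and 4.47% of all genes tested. At 72 h 2 rose and 3 fell, against 20.1% and 18.5%, so the counts do not set this list apart. Gnai2, a G protein of the inhibitory class that leukocyte chemotaxis uses, stood at 131 FPKM with ethanol and 144 with tamoxifen at 72 h (limma, adjusted p = 0.0905). Named after their values were seen, Gna15 (0.41) and Gnb2 (0.21) rose at 72 h, and the phospholipase C gene Plcb3 (-0.65) and the arrestin genes Arrb1 (-0.34) and Arrb2 (-0.41) fell. Arrestins end the signalling of such receptors. The 72 h call of Plcb3 held with each library left out, and each of the other 4 was lost without at least 1 library of 72 h (limma, adjusted p up to 0.191). At 48 h the rise was that of Gna15 and the fall that of Plcb3, and both were lost without any 1 of 3 libraries. Other alternatives also lost them, 4 for Gna15 and 3 for Plcb3 (limma, adjusted p up to 0.0785 and 0.0751).

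Over the 7 pathway lists 31 genes were tested, with 4 rises and 1 fall at 48 h and 8 rises and 5 falls at 72 h, shares of the same order as the 7.88%, 4.47%, 20.1% and 18.5% of all genes tested. Without ethanol replicate 1 of 72 h the 72 h counts were 5 rises and 2 falls, and without tamoxifen replicate 1 of 72 h they were 5 rises and 4 falls. The change differed between the times in 2 of the 31 upward and 2 downward, against 2.00% and 1.45% of all genes tested. The lists held genes related to the receptors by function. As a description of the receptors chosen, no tested list gene reached their log2 difference at 72 h.

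The genes whose pattern over the 8 libraries was most like the receptors' were found by Pearson's r of log2(FPKM + 1), given as a description. The libraries fall into the same 4 groups for every gene, so a high r is shared by many genes that move with treatment. Nearest to Ltb4r1 were Cald1 (0.996), Jun (0.995), Col12a1 (0.992), Ltbp2 (0.992) and Abcb1b (0.991). Nearest to Ltb4r2 were Itga4 (0.993), Cbfa2t2 (0.993), Lrrc28 (0.992), Npr2 (0.991) and Pid1 (0.990). The receptors had an r of 0.973 with each other and shared none of these genes.

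Cald1, an actin-binding protein gene, had group means of 41.7, 61.8, 41.6 and 82.4 FPKM in the order ethanol 48 h, tamoxifen 48 h, ethanol 72 h and tamoxifen 72 h. In the same order Jun, a subunit of the AP-1 transcription factor, had 10.4, 14.3, 9.49 and 18.2 FPKM. Itga4, an integrin subunit of leukocytes and other cells, had 0.671, 1.31, 0.814 and 2.24 FPKM. These genes followed the order of the receptors' groups with smaller ratios.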

How the data were processed

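Polyadenylated RNA of 8 libraries was sequenced as 100-base pairs, per the labels' protocols, which also gave the groups and replicate numbers. The authors deposited a table of FPKM per gene and library with an interval, which is the Cufflinks layout. Cufflinks 1.3.0, TopHat 1.4.1, BWA 0.6.1, DESeq, HTSeq and build mm9 are named per the submitters' processing notes, and their roles and the strand setting are not given in the sources used here. Per the file headers, the authors' comparison tables hold a signal of scaled count means, a ratio (fold change) and its log2, and p-values, of which the p-values of the receptors are not printed here.

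Of 20789 entries those with a status other than OK in any library (209) were left out and 1 was kept per identifier (20388). The test covered the 11867 genes that reached an FPKM of 1 in 2 or more libraries. A limma fit (R 4.3.3, limma 3.58.1, group means, eBayes with trend) on log2(FPKM + 1) used all 8 libraries, with two-sided tests, Benjamini-Hochberg adjustment over all genes tested and a threshold of 0.05. Starts in the files count from 0, and 1 was added. Fragments were inferred from the deposited interval as 2 Poisson SD, and over all genes 87.6% of 28017 values of up to 20 fragments were whole within 0.02. Exact (Clopper-Pearson) intervals used them. The fit was tested on simulated data.

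The receptors and the gene lists were chosen with earlier results of these data known, so the receptors' tamoxifen differences carry no test. Named genes were the receptors, Htatsf1, the 10 entries on each side, the 5 tested genes with the highest r to each receptor, the tested members of the leukotriene B4, 12-HHT and lipid mediator receptor lists and the 2 most abundant tested members of the other lists, except where stated. Alternatives changed the pseudocount, filter, scaling, trend, libraries in the fit and replicate block, and left out each library.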

Additional observations from a re-analysis of the deposited data

Results flagged for a closer look

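The tamoxifen change differed between 48 h and 72 h, by a test of the difference itself (limma, adjusted over all genes tested), in 4 of the 31 tested pathway genes and in 3 of the marker and p53 genes that the naming rule picks by abundance. Over the whole lists it was more positive at 72 h in 14 of 24 fibroblast, 4 of 16 p53 target, 2 of 8 leukocyte and 1 of 4 epithelial genes and more negative in 3 of 9 pluripotency genes, where 2.00% of all genes tested had a more positive and 1.45% a more negative change at 72 h. Ptgs2, a cyclooxygenase on the way to the BLT2 ligand 12-HHT, had log2 changes of 0.61 at 48 h and 1.28 at 72 h, a difference of 0.67 (limma, adjusted p = 0.00892). Lta4h, which forms leukotriene B4, had -0.05 and 0.42, a difference of 0.47 (limma, adjusted p = 0.0342), lost in the test when any 1 of 7 libraries was left out (limma, adjusted p up to 0.122). Cotl1 had 0.00 and -0.49, a difference of -0.50 (limma, adjusted p = 0.0143), lost without either ethanol library of 48 h (limma, adjusted p up to 0.0686). Mgst3 had 0.26 and -0.32, a difference of -0.58 (limma, adjusted p = 0.0367), lost without any 1 of 7 libraries (limma, adjusted p up to 0.122). Of the 3 abundant genes of the marker and p53 lists, Mdm2 differed by 0.82 (1.18 and 2.00, limma, adjusted p = 0.0045). Lyz2, the lysozyme gene of macrophages, differed by 0.82 (0.49 and 1.31, limma, adjusted p = 0.0306), lost without any 1 of 6 libraries (limma, adjusted p up to 0.113). Thbs1, a matrix protein gene of fibroblasts, differed by 0.41 (0.65 and 1.05, limma, adjusted p = 0.0242), lost without any 1 of 5 libraries (limma, adjusted p up to 0.0954).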

How the results depend on the processing

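The receptors' log2 differences kept their direction in every alternative. Another pseudocount or a left-out library could not have turned it, since both tamoxifen libraries lay above both ethanol libraries at each time. The kept direction is therefore no test of the differences. The size of the differences followed the pseudocount. At 48 h Ltb4r1 was at 1.73 with a pseudocount of 0.1 and 0.34 with 5, and Ltb4r2 at 1.60 and 0.40. At 72 h Ltb4r1 was at 3.32 and 0.83, and Ltb4r2 at 2.83 and 1.11. With 1 library left out, Ltb4r1 ran from 0.88 to 1.04 at 48 h and 1.88 to 2.15 at 72 h, and Ltb4r2 from 0.79 to 1.24 and 2.10 to 2.19. Where an arm kept 1 library, it was assumed to vary like the other groups. Without the filter 308 genes fell at 48 h (531 as reported), and the change differed between the times upward in 31 and downward in 13, against 237 and 172 as reported and 148 and 78 without the trend. With 1 library left out, 319 to 961 genes rose and 121 to 622 fell at 48 h, 1800 to 2334 rose and 1460 to 2172 fell at 72 h, 37 to 160 and 13 to 100 differed between the times, and 3525 to 4523 rose and 1704 to 2338 fell with time in ethanol. Among the 13 neighbours 2 fell at 48 h with only the 4 libraries of that time, 4 fell with time in ethanol under median-ratio scaling, and 2 rose under quantile normalization. Leaving out 1 library gave 1 to 2 neighbours falling at 48 h, 1 to 2 rising and 2 to 4 falling at 72 h, and 4 to 6 rising and 1 to 3 falling with time in ethanol. Among the 31 pathway genes 2 rose and 0 fell at 48 h without the filter and 0 fell without the trend, either of which left 1 upward and 1 downward difference between the times, and 2 fell with time in ethanol without the trend. Leaving out 1 library gave 1 to 5 pathway genes rising and 0 to 1 falling at 48 h, 5 to 8 and 2 to 5 at 72 h, 1 to 2 and 0 to 2 differing between the times, and 10 to 14 and 1 to 4 with time in ethanol. The causes were not tested. Depth limits the ethanol levels of the receptors, which rest on 3 to 16 fragments a library.

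The replicate differences of 2 groups correlated at 0.002 between ethanol and tamoxifen at 48 h, -0.062 at 72 h, 0.145 between the ethanol groups, -0.276 between the tamoxifen groups, and -0.045 and 0.031 across both. Not every pair exceeded 0.1, so the replicates were treated as sharing only a number. With the replicate number as a block, 108 genes differed downward between the times, 0 pathway genes fell at 48 h, and 1 pathway gene differed upward and 1 downward between the times.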
